A study of Mus musculus with 9 samples.

Results

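The genes described here encode the nuclear subunits of the mitochondrial respiratory chain and of ATP synthase, taken complex by complex. A gene was included when its symbol began with Nduf followed by a, b, c, s or v and a number (complex I), was Sdha to Sdhd (complex II), began with Uqcr or was Cyc1 (complex III), was Cycs (cytochrome c), began with Cox and a number from 4 to 8 (complex IV), or began with Atp5 (complex V). This rule found 78 of the 19786 genes listed under a single symbol: 33 of complex I, 4 of complex II, 9 of complex III, 16 of complex IV, 15 of complex V and cytochrome c. The names Cox7a2l, Ndufa4l2, Atp5s and Atp5sl match the rule but are not classed as subunits of the enzymes, and they were kept and are named where they matter. A further 11 probe sets with several symbols, one of them matching the rule, were left out, so that Ndufs5, Ndufa11, Ndufc2, Ndufb4, Cox7c, Atp5g2 and Atp5o are not analysed here. Among the 11 were also further probe sets of Cox5b, Ndufa13 and Cox8a, each listed with another symbol.

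RNA of hearts from male FVB mice, 15 weeks old, was hybridised to Affymetrix arrays of the mouse genome, with 3 hearts in each of 3 groups. The first group was wild type (WT). GlycoLo mice expressed a kinase-deficient form of phosphofructokinase 2 in the heart and GlycoHi mice a phosphatase-deficient form; the promoter that drives each form is not given in the sources used here. Phosphofructokinase 2 makes and breaks down the sugar bisphosphate that switches on the committed step of glycolysis, and the comparison of the lines asks how a fixed change in cardiac glycolysis bears on gene expression. Levels are deposited log2 values on an array-wide scale whose median was near 4.78 on each of the 9 arrays, and a difference of 1 is a doubling.

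The respiratory chain passes electrons from NADH (complex I) and succinate (complex II) through coenzyme Q to complex III, by cytochrome c to complex IV, and on to oxygen, while complexes I, III and IV pump protons out of the mitochondrial matrix. ATP synthase (complex V) lets the protons back and makes ATP. The heart draws most of its ATP from this chain, and several subunits of complex IV exist there as a heart and skeletal muscle form beside a general form. The core proton-pumping subunits encoded by mitochondrial DNA are not among these genes.

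Most of the 78 genes were among the brightest probe sets on the array: 54 had a mean level of 10 or more over the 9 hearts, 13 lay between 10 and the array median, and 11 lay below that median of 4.78. The 11 dim probe sets were those of Ndufa3, Ndufa12, Ndufa13, Ndufb9, Sdha, Uqcr10, Uqcrq, Cox4i2, Cox5b, Cox6b2 and Cox7b2. Sdha and Cox5b encode subunits that a heart cell needs, and their listed probe sets read 3.26 and 2.79 on average. A probe set this close to background carries little information on its gene. Cox5b and Ndufa13 each had a further probe set, which was listed with another symbol and left out by the rule. Other probe sets of the dim genes could not be compared because the sources used here do not name them. At the other end, Atp5b read 13.71 and Atp5g3 13.68, where scanner saturation can compress differences. Arrays correlated at 0.994 to 0.997 with each other over all probe sets. Pfkfb1, the liver isoform of phosphofructokinase 2, was between 7.74 and 7.97 in the WT hearts, between 14.34 and 14.37 in GlycoLo and between 14.40 and 14.43 in GlycoHi. Both lines thus stood far above WT at this gene.

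Each comparison was fitted with limma over all 45037 probe sets, and a gene was called when its p-value, adjusted by Benjamini-Hochberg over all of them, was under 0.05. In GlycoLo against WT, 0 of the 78 genes were called, against a background of 0.0844% of all probe sets, 0.0155% higher and 0.0688% lower. At an unadjusted p under 0.05 the count was 3 (2 higher, 1 lower), where 9.48% of all probe sets passed. The 95% interval of the difference lay within 1.5-fold of WT for 76 of the 78 genes, as it did for 97.2% of all probe sets. All GlycoLo hearts lay above all WT hearts for 15 genes and below them for 4, where 6.9% and 6.29% of all probe sets did so. Of the 54 genes of mean level 10 or more they lay above for 13 and below for 1. Of all 1570 probe sets of that level, 16.9% and 12.3% did so. In GlycoHi against WT, 6 genes were called: Cox8a and Cox6a1 rose, and Ndufs4, Ndufv3, Sdhd and Cox7a1 fell. The background there was 2.08% of probe sets, 1.08% higher and 1% lower. At an unadjusted p under 0.05 the count was 27 (6 higher, 21 lower), where 14.5% of all probe sets passed. The hearts of GlycoHi lay above those of WT for 6 genes and below them for 35, where 9.68% and 8.49% of all probe sets did so. The interval lay within 1.5-fold for 74 genes and for 95.5% of all probe sets. Bright probe sets passed more often: of those of mean level 10 or more, 5.67% were called, beside 7.41% of the 54 genes at that level. At an unadjusted p under 0.05, 422 of 1570 such probe sets passed, beside 20 of the 54 genes (4 higher, 16 lower). The GlycoHi hearts lay above WT for 5 of the 54 and below for 31, where 26.2% and 22.5% of such probe sets did. In GlycoHi against GlycoLo, Cox8a was higher and Ndufv3, Ndufa10 and Cox7a1 were lower, against 1.71% of all probe sets, 0.957% higher and 0.755% lower. The unadjusted count was 29 (2 higher, 27 lower), where 12.9% of all probe sets passed. The hearts of GlycoHi lay above those of GlycoLo for 5 genes and below them for 45, where 8.76% and 8.01% of all probe sets did so. The interval lay within 1.5-fold for 75 genes and for 95.9% of all probe sets. At mean level 10 or more, 4.46% of probe sets and 5.56% of the 54 genes were called. There, 388 of 1570 probe sets had an unadjusted p under 0.05, beside 25 of the 54 genes (2 higher, 23 lower). The GlycoHi hearts lay above GlycoLo for 4 of the 54 and below for 40, where 22.4% and 24% of such probe sets did. The 3 comparisons share groups, so that GlycoHi against WT and GlycoHi against GlycoLo are not separate evidence on the GlycoHi hearts. The authors' deposited table gives the same 0, 6 and 4 genes an adjusted p under 0.05.

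The number of calls in GlycoHi depended on how the variance was modelled. With a variance that follows the mean level and is estimated robustly, limma called 26 of the 78 genes against WT (5 higher, 21 lower), beside 4.16% of all probe sets, 2.16% higher and 2% lower. It called 28 against GlycoLo (2 higher, 26 lower), beside 3.43%, 1.8% higher and 1.64% lower. For GlycoLo against WT it again called 0, beside 0.568%. The genes called lower in GlycoHi than in WT were 13 of complex I and 2 each of complexes II, III, IV and V. Those called lower than in GlycoLo were 15, 2, 4, 3 and 2 of complexes I to V. All genes called higher were of complex IV. Below, called refers to the main fit above unless another variance is named. Adding an offset of 50 to the linear values before taking logs gave 23 called genes in each of the GlycoHi comparisons. They were 3 higher and 20 lower against WT, and 1 higher and 22 lower against GlycoLo. Of all 45037 probe sets, 1620 and 1271 were called with that offset. The shares and counts of probe sets given for the trended variance and the offset cover all levels, while most of the 78 genes were bright. The share called among bright probe sets was not computed for either.

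Seen as groups, complexes I, II, III and V sat slightly below WT in the GlycoHi hearts and complex IV did not. The median log2 difference of GlycoHi from WT was -0.12 over complex I, -0.13 over complex II, -0.08 over complex III, 0.04 over complex IV and -0.10 over complex V, beside 0.00 over all probe sets. Below WT were 29 of 33 genes of complex I, 4 of 4 of complex II, 9 of 9 of complex III, 7 of 16 of complex IV and 12 of 15 of complex V. The same medians in GlycoLo were 0.05, -0.05, 0.06, 0.04 and 0.00. These medians describe the lists and carry no test, since genes of one heart are not independent of each other.

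The per-heart values show how small these shifts were. Over the 25 bright genes of complex I, those of mean level 10 or more, the median deviation from the WT mean was 0.04, -0.02 and -0.02 in the WT hearts, 0.03, 0.03 and 0.09 in the GlycoLo hearts and -0.07, -0.11 and -0.12 in the GlycoHi hearts. The GlycoHi hearts were the lowest, by a margin of about the same size as the range of the WT hearts. Over the 11 bright genes of complex IV the GlycoHi hearts stood at 0.09, 0.08 and 0.04, and over the 9 of complex V at -0.07, -0.08 and -0.11. The 1570 probe sets of that brightness read between -0.02 and 0.02 in every heart. Of the 25 bright genes of complex I, 18 had all GlycoHi hearts below all WT hearts, where 22.5% of probe sets of that brightness did. Below all GlycoLo hearts were 23 of the 25, where 24% of bright probe sets were. Genes were assigned to a complex by symbol alone. Ndufa4, counted in complex I only by its symbol, is 1 of the 18 and 1 of the 23, at -0.09 ± 0.06 (SE) in GlycoHi against WT.

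**Figure D1:**
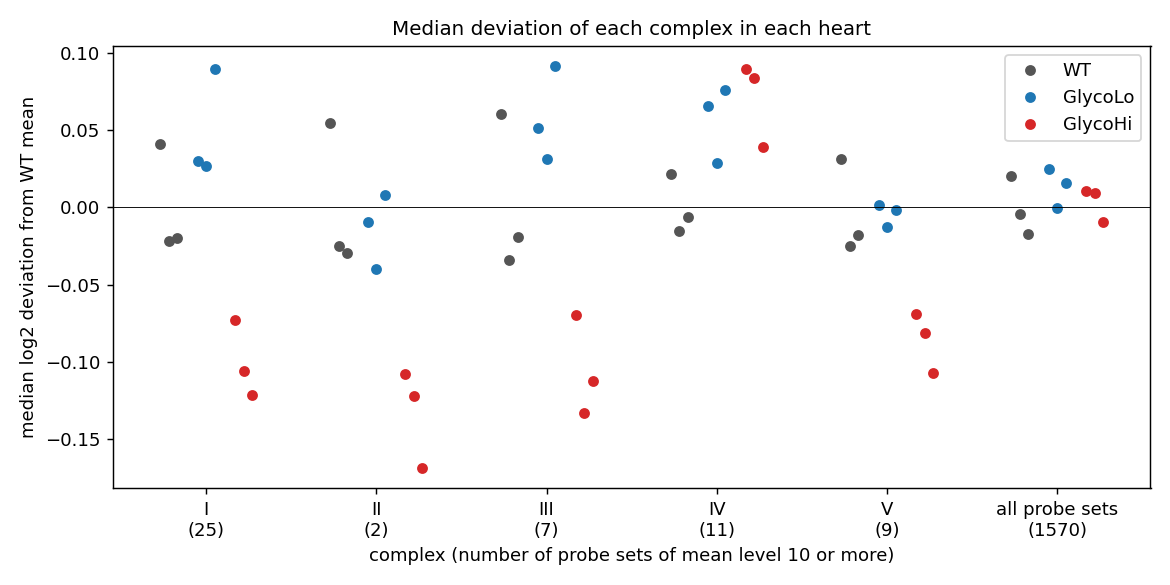
Median log2 deviation from the WT mean (y axis) of the genes of each complex at mean level 10 or more, with the number of genes under each complex and all probe sets of that level at the right; each point is 1 heart. The GlycoHi hearts lie below the others for complexes I, II, III and V and not for complex IV.

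**Figure D2:**
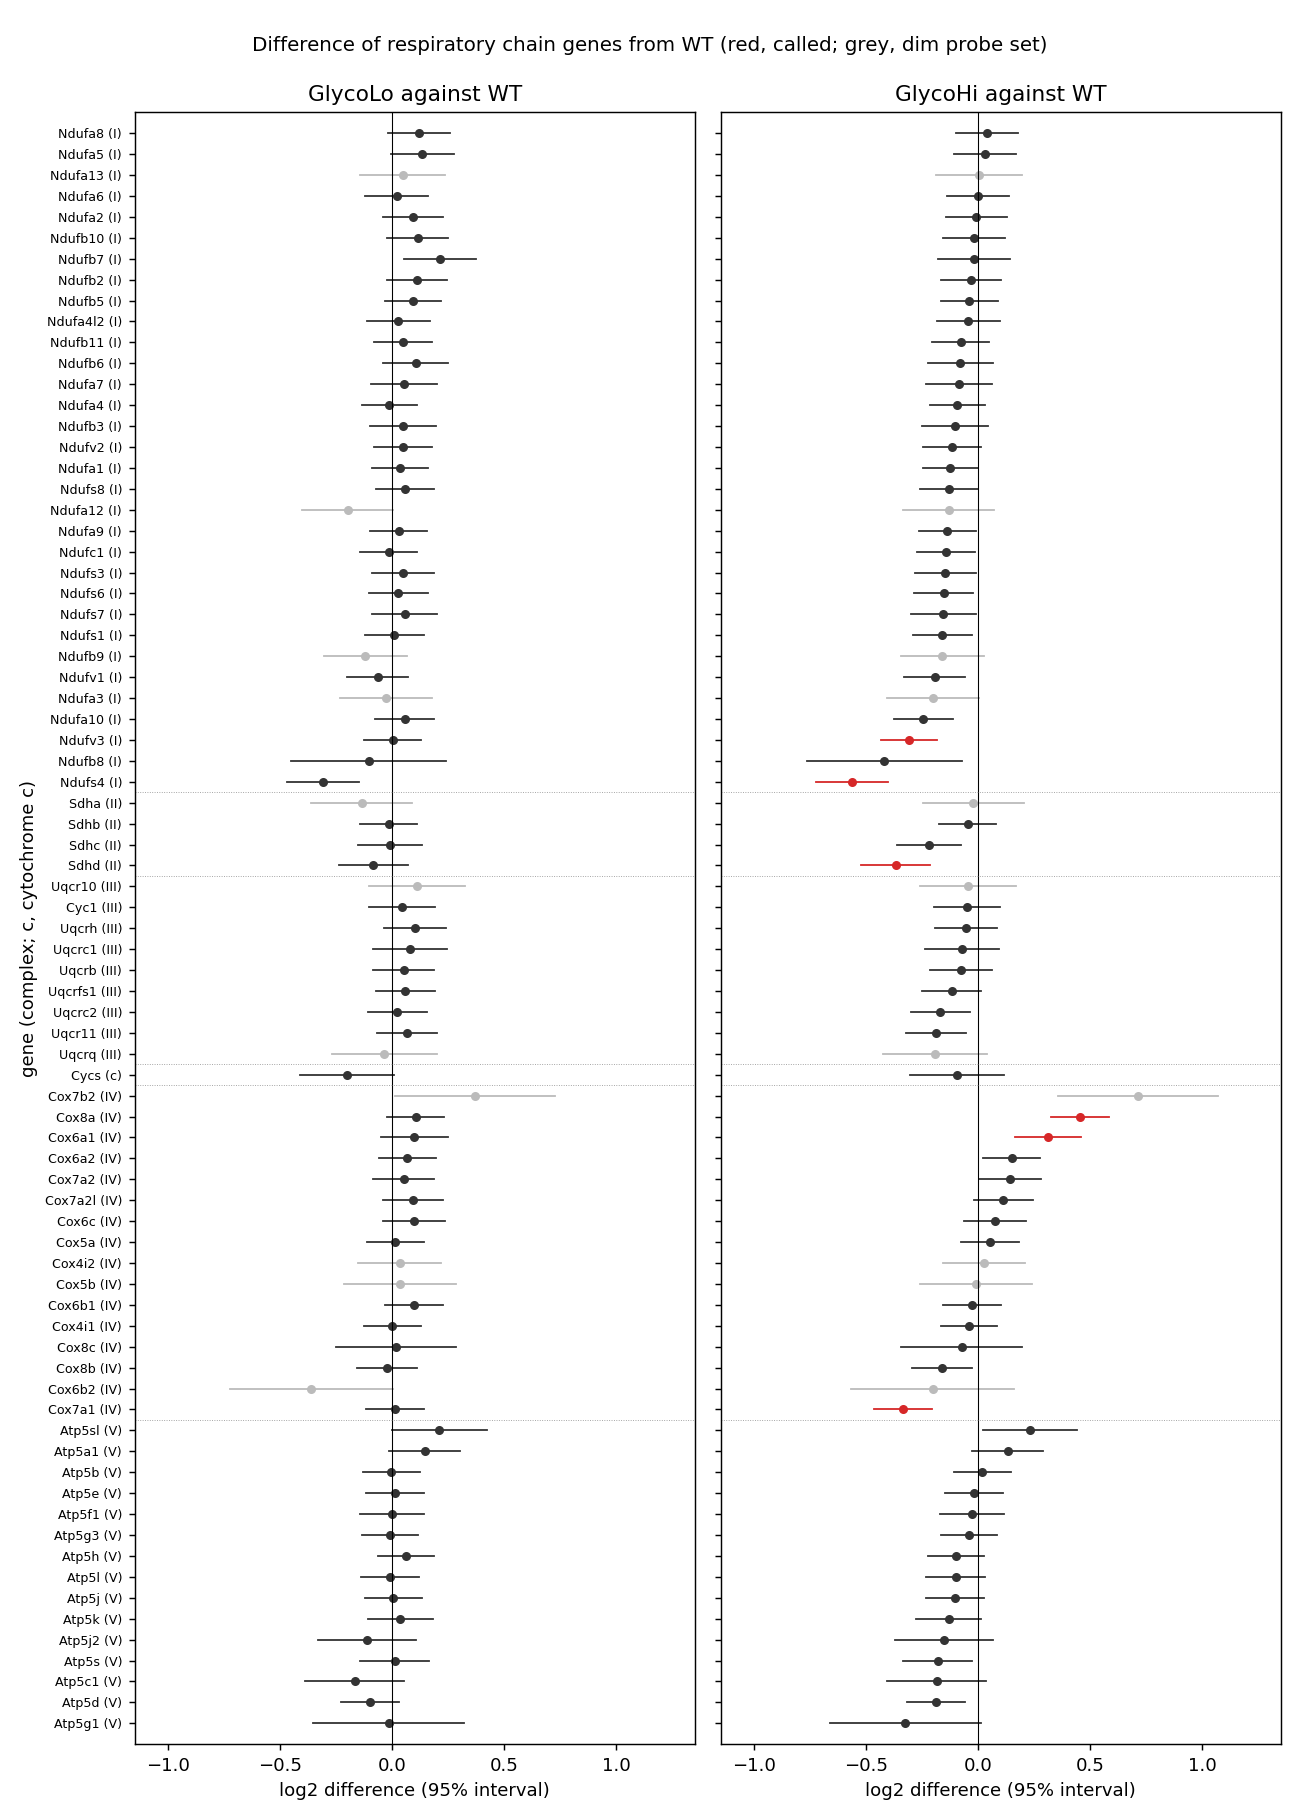
Log2 difference from WT of the respiratory chain genes reported one by one, by complex, in GlycoLo (left) and GlycoHi (right), with the 95% interval as a line; red marks genes called at an adjusted p under 0.05 and grey marks dim probe sets. No gene is red at the left and 6 are red at the right, with most of the remaining genes of complex I a little left of 0.

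Complex I takes electrons from NADH at a peripheral arm that holds flavin and iron-sulfur clusters and passes them to coenzyme Q. Ndufs4, an accessory subunit of the NADH-oxidising end whose loss in mice causes a fatal encephalopathy, read 7.40, 7.17 and 7.22 in the WT hearts. It read 6.98, 6.94 and 6.94 in the GlycoLo hearts and 6.76, 6.68 and 6.66 in the GlycoHi hearts. The 3 groups did not overlap, with WT highest and GlycoHi lowest. In GlycoHi it fell by 0.56 ± 0.07 (SE) on the log2 scale, to 0.677 of the WT level (limma, adjusted p = 0.00261). In GlycoLo the difference from WT was -0.31 ± 0.07 and was not called (limma, adjusted p = 0.181), and the difference of GlycoHi from GlycoLo, -0.25 ± 0.07, was not called either (limma, adjusted p = 0.136).

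Ndufv3, a small accessory subunit of the flavin-containing end, read 12.58, 12.52 and 12.54 in WT, 12.55, 12.53 and 12.57 in GlycoLo and 12.26, 12.24 and 12.23 in GlycoHi. WT and GlycoLo lay together and the GlycoHi hearts lay below both. It fell by 0.31 ± 0.06 against WT (limma, adjusted p = 0.0219) and was lower by the same margin against GlycoLo (-0.31 ± 0.06, limma, adjusted p = 0.0231). Ndufa10, an accessory subunit related to nucleoside kinases, read 8.0, 8.02 and 8.0 in WT, 8.10, 8.02 and 8.05 in GlycoLo and 7.81, 7.72 and 7.75 in GlycoHi. Again the GlycoHi hearts were lowest without overlap. The difference from GlycoLo was called (-0.30 ± 0.06, limma, adjusted p = 0.0330) and that from WT was not (-0.24 ± 0.06, limma, adjusted p = 0.0703). The call on Ndufv3 against WT was lost when any 1 WT or GlycoHi array was left out. Against GlycoLo it was lost when any 1 GlycoLo or GlycoHi array was left out. The call on Ndufa10 against GlycoLo was lost without any 1 of the 9 arrays. All 3 calls were also lost when only the 6 arrays compared were fitted. With the replicate number as a block, the 2 calls against GlycoLo were lost too. Over the alternatives run, the adjusted p in limma was up to 0.0729 for Ndufv3 against WT. Against GlycoLo it was up to 0.0887 for Ndufv3 and 0.117 for Ndufa10. The differences themselves stayed between -0.32 and -0.29 for Ndufv3 and between -0.32 and -0.25 for Ndufa10 over the alternatives run. The call on Ndufs4 held in each of the 17 alternatives.

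Of the core of the peripheral arm, 6 genes are described here, none of them called. Ndufv1, which binds flavin and NADH, read 11.44, 11.34 and 11.35 in WT, 11.37, 11.28 and 11.28 in GlycoLo and 11.20, 11.17 and 11.18 in GlycoHi. Its GlycoHi hearts were below all others, with a difference from WT of -0.19 ± 0.06 (limma, adjusted p = 0.161). For the iron-sulfur subunits Ndufv2, Ndufs1, Ndufs7 and Ndufs8 the differences from WT in GlycoHi were -0.12, -0.16, -0.16 and -0.13. Ndufs3, in the part of the arm that leads to the coenzyme Q site, differed by -0.15. In each of these 6 genes the GlycoHi hearts lay below the WT and the GlycoLo hearts without overlap, at SE between 0.06 and 0.07. Of all probe sets of mean level 10 or more, 22.5% lay below WT in this way and 24% below GlycoLo. With the trended and robust variance, each of the 6 was called lower in GlycoHi than in WT, where 2% of all probe sets of any level were. The share among probe sets of mean level 10 or more was not computed for that model.

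None of the other genes of complex I was called. In GlycoHi against WT the highest was Ndufa8, a subunit on the intermembrane side, at 0.04 ± 0.06. The lowest of these other genes was Ndufb8 of the membrane arm, which read 5.96, 5.46 and 5.24 in WT and 5.10, 5.26 and 5.05 in GlycoHi. Its groups overlapped, and its difference from WT of -0.42 ± 0.16 was larger than that of Ndufv3 and was not called (limma, adjusted p = 0.239). Against GlycoLo it differed by -0.31 ± 0.16. In GlycoLo the highest was Ndufb7, also of the membrane arm, at 11.83, 11.80 and 11.98 against 11.74, 11.63 and 11.61 in WT. It lay above WT without overlap, and the difference of 0.21 ± 0.07 was not called (limma, adjusted p = 0.384). Among bright genes of complex I the GlycoLo hearts were above all WT hearts for 8 of 25, where 16.9% of bright probe sets were. With the trended and robust variance, Ndufa1, Ndufa9, Ndufc1 and Ndufs6 were called lower in GlycoHi than in WT and in GlycoLo. Ndufb5, Ndufb6, Ndufb7 and Ndufb11 were called lower than in GlycoLo only. Of all probe sets, 2% and 1.64% were called lower than in WT and in GlycoLo.

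Of 14 measured assembly factors and partners of complex I, 3 fell in GlycoHi against WT, where 1% of all probe sets were called lower, and 0 were called in GlycoLo against WT, where 0.0688% were called lower. Ndufaf1, which helps to build the membrane arm, read 8.80, 8.67 and 8.63 in WT, 8.68, 8.62 and 8.81 in GlycoLo and 8.22, 8.14 and 8.12 in GlycoHi. It fell by 0.54 ± 0.07 (limma, adjusted p = 0.00381) and was lower against GlycoLo by the same margin (-0.54 ± 0.07, limma, adjusted p = 0.00384). Foxred1, another assembly factor, fell by 0.36 ± 0.06 (limma, adjusted p = 0.0153) and was lower than in GlycoLo (-0.42 ± 0.06, limma, adjusted p = 0.00697). Ndufab1, the mitochondrial acyl carrier protein, which is also a subunit of complex I, fell by 0.61 ± 0.08 (limma, adjusted p = 0.0035). In GlycoLo, Ndufab1 stood between the other groups: the means were 6.22 ± 0.15 for GlycoLo, 6.63 ± 0.06 for WT and 6.03 ± 0.07 for GlycoHi (SD, n = 3), and its difference from WT of -0.41 ± 0.08 was not called (limma, adjusted p = 0.124). The median of the 14 genes was -0.11 in GlycoHi and 0.05 in GlycoLo.

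Complex II oxidises succinate and is shared with the citric acid cycle. Sdhd, one of its membrane anchors, read 8.32, 8.17 and 8.27 in WT, 8.24, 8.15 and 8.11 in GlycoLo and 7.94, 7.89 and 7.82 in GlycoHi. The GlycoHi hearts lay below the other 6. Sdhd fell by 0.37 ± 0.07 in GlycoHi, to 0.775 of the WT level (limma, adjusted p = 0.0243), and differed from GlycoLo by -0.28 ± 0.07 (limma, adjusted p = 0.0829). The call was lost without WT 1, WT 3, GlycoHi 2 or GlycoHi 3, and when only the 6 arrays compared were fitted. Over the alternatives run, its adjusted p in limma was up to 0.0857.

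The other membrane anchor, Sdhc, read 10.96, 10.85 and 10.84 in WT, 10.90, 10.82 and 10.90 in GlycoLo and 10.69, 10.70 and 10.60 in GlycoHi. It showed the same order of groups as Sdhd without a call (-0.22 ± 0.07, limma, adjusted p = 0.136). With the trended and robust variance, Sdhc and Sdhd were called lower in GlycoHi than in WT and in GlycoLo, where 2% and 1.64% of all probe sets were. Sdhb, the iron-sulfur subunit, differed by -0.05 ± 0.06. Sdha, the flavin subunit, was read here only from its listed dim probe set and differed by -0.02 ± 0.10. Of 10 assembly factors of complexes II and III, Sdhaf3, which helps to mature the iron-sulfur subunit, rose in GlycoHi by 0.36 ± 0.07 (limma, adjusted p = 0.0354), and 9 were not called. Sdhaf3 read 8.16 ± 0.03 in GlycoLo and 8.14 ± 0.05 in GlycoHi against 7.78 ± 0.13 in WT (SD, n = 3), and in GlycoLo the difference of 0.38 ± 0.07 was not called (limma, adjusted p = 0.118).

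Complex III passes electrons from coenzyme Q to cytochrome c, and none of its 9 genes was called in any comparison of the main fit. At an unadjusted p under 0.05 in limma there were 2, both lower, in GlycoHi against WT, where 14.5% of all probe sets passed, and 4, all lower, in GlycoHi against GlycoLo, where 12.9% did. All of these were among the 7 bright genes of complex III. Of the 1570 bright probe sets, 422 and 388 passed. Uqcr11, a small subunit of its membrane part, read 12.54, 12.47 and 12.49 in WT, 12.54, 12.53 and 12.62 in GlycoLo and 12.34, 12.29 and 12.31 in GlycoHi. The GlycoHi hearts were lowest without overlap, at -0.19 ± 0.06 against WT (limma, adjusted p = 0.170) and -0.25 ± 0.06 against GlycoLo (limma, adjusted p = 0.0748). Uqcrc2, a core protein of the matrix side, differed in GlycoHi from WT by -0.17 ± 0.06, Uqcrfs1, the Rieske iron-sulfur protein, by -0.12 ± 0.06, and Uqcrc1, the other core protein, by -0.07 ± 0.08. Cyc1, the haem subunit that hands electrons to cytochrome c, differed by -0.05 ± 0.07. The hearts of GlycoHi lay below those of WT for 3 of the 7 bright genes of complex III, where 22.5% of probe sets of that brightness did so, and below those of GlycoLo for 7 of 7, where 24% did. With the trended and robust variance, Uqcr11 and Uqcrc2 were called lower in GlycoHi than in WT, where 2% of all probe sets were. Uqcr11, Uqcrc2, Uqcrfs1 and Uqcrh were called lower than in GlycoLo, where 1.64% were. The dim probe sets of Uqcrq and Uqcr10 differed from WT by -0.19 ± 0.11 and -0.05 ± 0.10. Uqcrh, the hinge protein, was 12.83, 12.75 and 12.73 in WT and 12.88, 12.82 and 12.91 in GlycoLo, which overlapped. Cycs, cytochrome c itself, was not called, with mean levels of 5.39 ± 0.18 for WT, 5.19 ± 0.11 for GlycoLo and 5.30 ± 0.06 for GlycoHi (SD, n = 3).

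Complex IV, cytochrome c oxidase, was where the called genes went in both directions. The 6 genes of interest form pairs of a general form and a heart and muscle form of one small subunit around the catalytic core: Cox6a1 and Cox6a2, Cox7a2 and Cox7a1, and Cox8a and Cox8b. Promoters of 5 of these genes are shown because the forms of a subunit differed in the GlycoHi hearts; Cox6a2 is named only. Each line gives 170 bases before to 20 after the start of the gene from RefSeq, assembly GRCm38.p6, in the direction of the gene: Cox6a1 from chr5:115348939-115349128 (minus strand), Cox7a1 from chr7:30184001-30184190 (plus strand), Cox7a2 from chr9:79759834-79760023 (minus strand), Cox8a from chr19:7217597-7217786 (minus strand) and Cox8b from chr7:140900427-140900616 (minus strand). Capitals mark exact matches to the palindromic NRF1 motif, which are the first capitals of the Cox6a1 line, or to the GABP motif CCGGAAG, which on the other strand reads CTTCCGG.
Cox6a1: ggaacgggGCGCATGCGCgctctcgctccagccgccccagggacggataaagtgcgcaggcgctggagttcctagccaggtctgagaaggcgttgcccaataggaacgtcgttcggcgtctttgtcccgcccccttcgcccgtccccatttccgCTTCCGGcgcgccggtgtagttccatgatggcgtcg
Cox8a: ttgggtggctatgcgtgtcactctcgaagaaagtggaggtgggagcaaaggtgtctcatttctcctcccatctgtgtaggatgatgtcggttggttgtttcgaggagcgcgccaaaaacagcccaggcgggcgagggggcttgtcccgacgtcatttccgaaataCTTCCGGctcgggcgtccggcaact
Cox7a2: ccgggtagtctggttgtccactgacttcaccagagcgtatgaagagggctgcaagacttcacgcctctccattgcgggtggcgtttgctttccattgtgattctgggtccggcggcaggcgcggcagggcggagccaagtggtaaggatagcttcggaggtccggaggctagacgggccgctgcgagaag
Cox7a1: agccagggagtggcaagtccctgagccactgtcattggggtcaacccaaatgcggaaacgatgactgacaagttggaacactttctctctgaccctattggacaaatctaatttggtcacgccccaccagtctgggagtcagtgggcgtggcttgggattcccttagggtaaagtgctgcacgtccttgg
Cox8b: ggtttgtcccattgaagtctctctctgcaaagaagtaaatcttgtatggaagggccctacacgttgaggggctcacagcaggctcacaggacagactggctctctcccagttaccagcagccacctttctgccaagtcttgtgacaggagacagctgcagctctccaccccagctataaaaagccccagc

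The promoters differ in CpG content. In the 300 bases of each window in the table, from 250 before to 50 after the start, CpG occurred 32 times for Cox6a1, 20 times for Cox7a2 and 19 times for Cox8a, the general forms. It occurred 7 times for Cox7a1 and 2 times for Cox8b, the heart forms, which were the lowest counts among the 62 of 78 genes with a promoter in the table. The median was 19 over those 62 genes and 7 over all 27025 genes. The GABP motif was found on either strand in 25.8% of the 62 promoters and in 9.93% of all, and the NRF1 motif in 4.84% and 1.07%. The ERR motif TCAAGGTCA (TGACCTTGA on the other strand) was found in 3.23% of the 62, Sdhd and Atp5g3, and in 0.466% of all, and the YY1 motif CAAGATGGC (GCCATCTTG) in 11.3% and 1.42%. Cox6a1 held an NRF1 and a GABP match and Cox8a a GABP match, whereas none of these 4 motifs was found in the windows of Cox7a1, Cox7a2 and Cox8b. A match describes the letters and says nothing on binding.

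Cox8a, the general form of subunit VIII, read 10.38, 10.38 and 10.39 in WT, 10.49, 10.46 and 10.51 in GlycoLo and 10.85, 10.79 and 10.87 in GlycoHi. The 3 groups did not overlap, with GlycoHi highest. It rose by 0.45 ± 0.06 in GlycoHi, to 1.37 times the WT level (limma, adjusted p = 0.00261), and was higher than in GlycoLo by 0.35 ± 0.06 (limma, adjusted p = 0.0136). The GlycoLo difference of 0.10 ± 0.06 was not called (limma, adjusted p = 0.614). Cox8b, the heart form, read 13.035, 12.995 and 12.984 in WT, 12.972, 12.965 and 12.999 in GlycoLo and 12.916, 12.809 and 12.806 in GlycoHi. Its GlycoHi hearts lay below the others by less than Cox8a lay above, at -0.16 ± 0.06 against WT, without a call (limma, adjusted p = 0.245).

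Cox7a1, the heart form of subunit VIIa, which takes part in dimers of complex IV, read 12.93, 12.92 and 12.87 in WT, 12.90, 12.89 and 12.96 in GlycoLo and 12.58, 12.54 and 12.58 in GlycoHi. WT and GlycoLo overlapped and GlycoHi lay below both. It fell by 0.34 ± 0.06 in GlycoHi, to 0.792 of the WT level (limma, adjusted p = 0.0158), and was lower than in GlycoLo by the same margin (-0.35 ± 0.06, limma, adjusted p = 0.0148). Cox7a2, the general form, read 12.84, 12.74 and 12.74 in WT, 12.84, 12.78 and 12.85 in GlycoLo and 12.96, 12.89 and 12.91 in GlycoHi. Here the GlycoHi hearts were highest, at 0.14 ± 0.06 against WT, without a call (limma, adjusted p = 0.321). Cox7a2l, a relative that helps to join complexes into supercomplexes, differed by 0.11 ± 0.06.

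Cox6a1, the general form of subunit VIa, read 9.99, 9.92 and 10.05 in WT, 10.09, 10.01 and 10.16 in GlycoLo and 10.33, 10.27 and 10.30 in GlycoHi. The GlycoHi hearts lay above the other 6. It rose by 0.31 ± 0.07 in GlycoHi, to 1.24 times the WT level (limma, adjusted p = 0.0421). Cox6a2, the heart form, read 11.42, 11.43 and 11.48 in WT, 11.49, 11.52 and 11.52 in GlycoLo and 11.58, 11.63 and 11.58 in GlycoHi. It moved the same way as Cox6a1 by less, at 0.15 ± 0.06, without a call (limma, adjusted p = 0.252).

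The balance within each pair can be read as the log2 level of the general form minus that of the heart form in the same heart, set to 0 at the WT mean. For subunit VIIa it was 0.04 ± 0.03 in GlycoLo and 0.48 ± 0.03 in GlycoHi, where WT spread by 0.04 (SD, n = 3). For subunit VIII it was 0.13 ± 0.01 in GlycoLo and 0.61 ± 0.06 in GlycoHi, where WT spread by 0.03. For subunit VIa it was 0.03 ± 0.08 in GlycoLo and 0.16 ± 0.06 in GlycoHi, where WT spread by 0.05. The general form gained on the heart form in each GlycoHi heart for the 3 pairs, by more than the WT hearts spread. For subunit VIa the GlycoHi hearts overlapped those of GlycoLo, with GlycoHi 2 at 0.0973 and GlycoLo 3 at 0.0979. With 3 hearts against 3, an exact test of such a balance cannot go below p = 0.1, and none was made since the pairs were singled out with these values known.

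**Figure D3:**
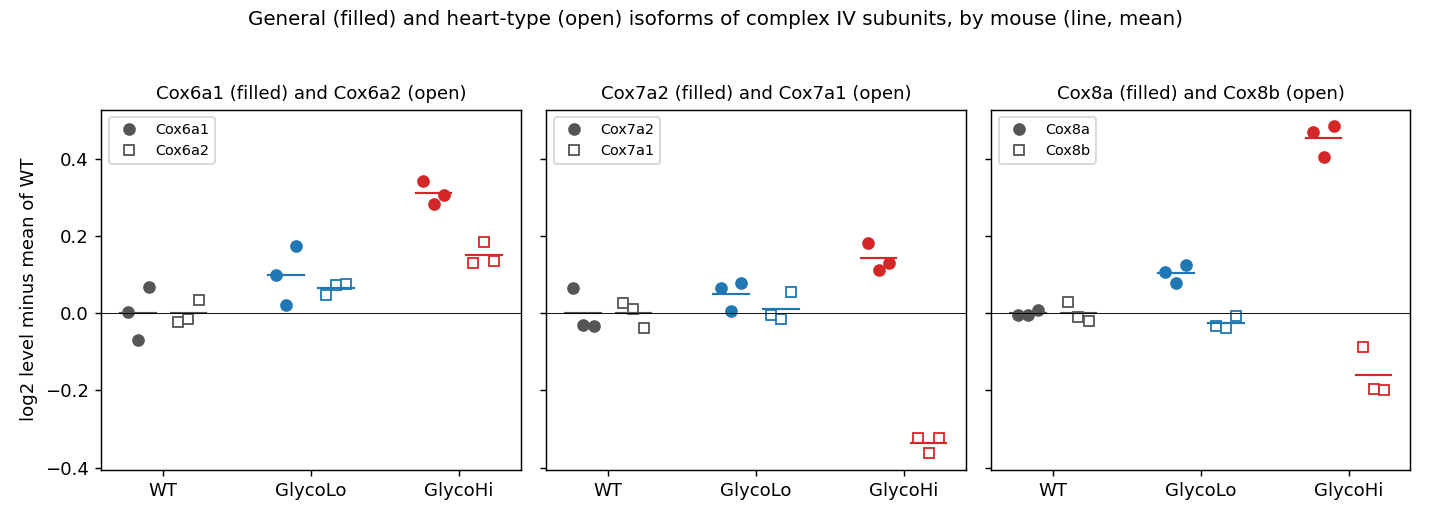
Log2 level minus the WT mean (y axis) of the general isoform (filled) and the heart isoform (open) of 3 subunits of complex IV in each of the 9 hearts, with a line at each group's mean. In GlycoHi the filled points of Cox7a2 and Cox8a lie above 0 and the open points of Cox7a1 and Cox8b below it, whereas Cox6a1 and Cox6a2 both lie above 0.

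The calls on these genes rested on few arrays. Cox8a was called against WT in each of the 17 alternatives, and its call against GlycoLo was lost without GlycoLo 1, GlycoLo 2 or GlycoHi 3 (adjusted p of up to 0.0609). Cox7a1 lost its call against WT without WT 1, WT 2 or GlycoHi 2 (adjusted p of up to 0.0676) and its call against GlycoLo without GlycoLo 3, GlycoHi 2 or GlycoHi 3 (adjusted p of up to 0.0634). Cox6a1 lost its call in 10 of the 17 alternatives, among them each WT and each GlycoHi array left out (adjusted p of up to 0.152). The sign of these GlycoHi differences did not turn under any alternative run. With the trended and robust variance, Cox6a2, Cox7a2 and the dim Cox7b2 were also called higher and Cox8b lower in GlycoHi than in WT.

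The rest of complex IV showed no call in the main fit. With the trended and robust variance, Cox6b1 was also called lower in GlycoHi than in GlycoLo. Cox4i1, the main form of the regulatory subunit IV, differed in GlycoHi by -0.04 ± 0.06, and Cox4i2, its hypoxia-inducible form, had a dim probe set and differed by 0.03 ± 0.08. Cox5a, which sits on the matrix side, differed by 0.05 ± 0.06. Cox6b1, on the intermembrane side, read 12.87, 12.83 and 12.84 in WT, 12.95, 12.90 and 12.98 in GlycoLo and 12.84, 12.81 and 12.80 in GlycoHi. It was highest in GlycoLo without overlap, at 0.10 ± 0.06 against WT (limma, adjusted p = 0.644). Cox6b2 and Cox8c, forms best known from the testis, were low, at means of 4.36 and 4.95. Cox7b2 had the largest difference of the 78 genes in GlycoHi, 0.71 ± 0.16 (limma, adjusted p = 0.0518), from a dim probe set that read 3.37, 3.48 and 2.92 in WT and 3.94, 4.14 and 3.82 in GlycoHi. Among 22 assembly factors of complex IV, Cox19, which works in copper delivery to the enzyme, rose in GlycoHi by 0.35 ± 0.06 (limma, adjusted p = 0.0147) and was higher than in GlycoLo by 0.32 ± 0.06 (limma, adjusted p = 0.0272), and 21 were not called.

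**Figure D4:**
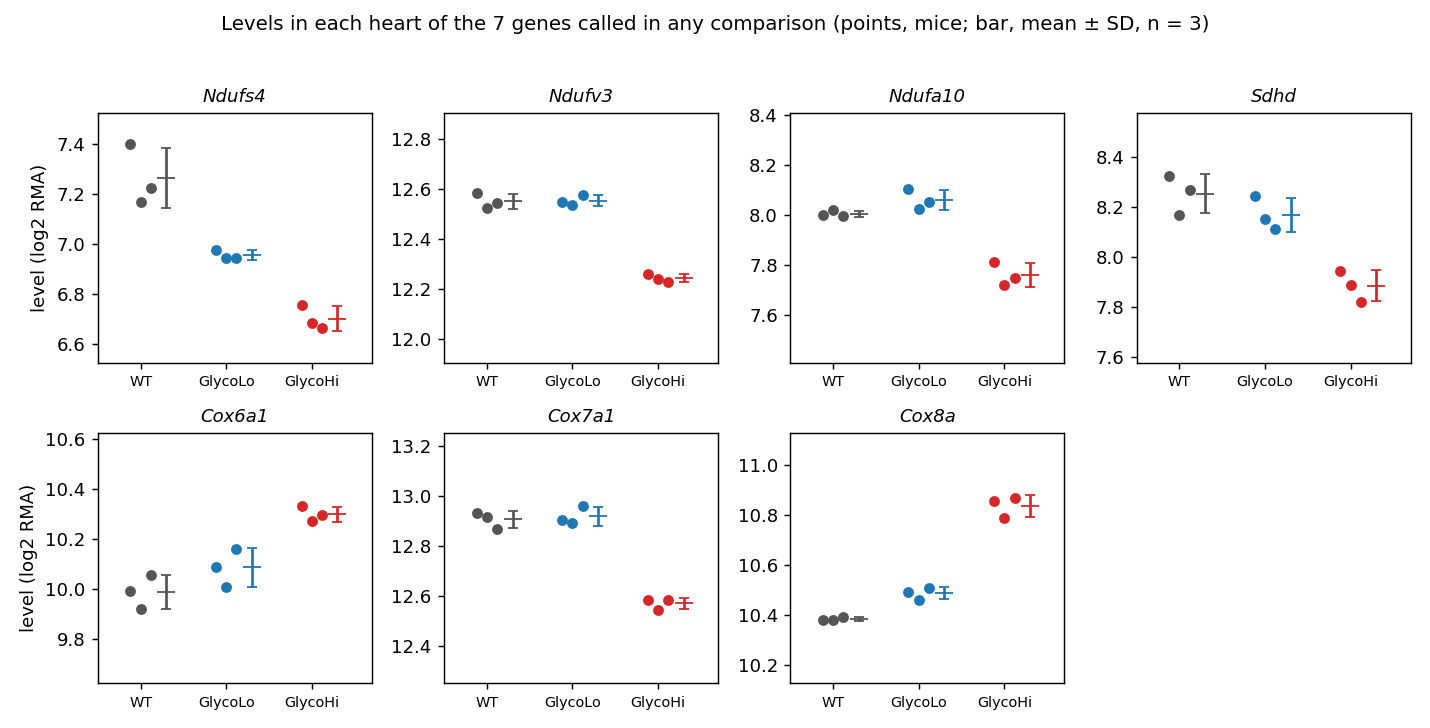
Level (log2, y axis) in each heart of the 7 genes called in any comparison; points are mice, the bar beside them is the mean with its SD (n = 3), and each panel spans 1 log2 unit around its own midpoint. Ndufs4, Ndufv3, Ndufa10, Sdhd and Cox7a1 are lowest, and Cox6a1 and Cox8a highest, in GlycoHi.

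Complex V, the ATP synthase, had no called gene among 15 in the main fit. At an unadjusted p under 0.05 in limma there were 3 in GlycoHi against WT (1 higher, 2 lower), where 14.5% of all probe sets passed, and 3, all lower, in GlycoHi against GlycoLo, where 12.9% did. Of the 9 bright genes of complex V, 1 and 2 passed. Of the 1570 bright probe sets, 422 and 388 did. The 3 against WT were Atp5d and the 2 names that are not subunits, Atp5s (-0.18 ± 0.07) and Atp5sl, and Atp5s was also 1 of the 3 against GlycoLo (-0.19 ± 0.07). Atp5d, the delta subunit of the central stalk, read 13.131, 13.077 and 13.144 in WT, 13.027, 13.004 and 13.018 in GlycoLo and 12.941, 12.885 and 12.961 in GlycoHi. The 3 groups did not overlap and stood in that order, with GlycoHi at -0.19 ± 0.06 against WT (limma, adjusted p = 0.153) and GlycoLo at -0.10 ± 0.06 (limma, adjusted p = 0.626). The catalytic beta subunit, Atp5b, differed from WT in GlycoHi by 0.02 ± 0.06, the alpha subunit, Atp5a1, by 0.13 ± 0.07, and the gamma subunit of the rotor, Atp5c1, by -0.18 ± 0.10. Atp5h, of the peripheral stalk, read 13.14, 13.13 and 13.10 in WT, 13.20, 13.17 and 13.19 in GlycoLo and 13.04, 13.02 and 13.02 in GlycoHi. It was lowest in GlycoHi and highest in GlycoLo without overlap, a difference between the lines of -0.16 ± 0.06 (limma, adjusted p = 0.249). With the trended and robust variance, Atp5d and Atp5h were called lower in GlycoHi than in WT, where 2% of all probe sets were. Atp5h and Atp5k were called lower than in GlycoLo, where 1.64% were. Of the genes for the membrane ring, Atp5g1 differed in GlycoHi from WT by -0.33 ± 0.15, the lowest of complex V, with GlycoHi hearts at 4.97, 5.42 and 4.71 that overlapped WT at 5.30, 5.36 and 5.42. Atp5g3 differed by -0.04 ± 0.06. The highest of complex V was Atp5sl, a name that matches the rule without being a subunit, at 0.23 ± 0.10. Tmem70, which helps to build the membrane ring, was 1 of 5 assembly and regulatory genes of complex V and fell in GlycoHi by 0.36 ± 0.06 (limma, adjusted p = 0.017). It was lower than in GlycoLo by 0.44 on the log2 scale (-0.44 ± 0.06, limma, adjusted p = 0.00638), and the other 4 were not called.

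Genes that serve the chain from outside the complexes showed few calls. Of 11 transcriptional regulators of respiratory genes, Esrrg, the estrogen-related receptor gamma, rose in GlycoHi by 0.39 ± 0.06 (limma, adjusted p = 0.00956). It read 8.97, 8.92 and 8.92 in WT, 9.01, 8.89 and 8.92 in GlycoLo and 9.30, 9.37 and 9.30 in GlycoHi, with GlycoHi above the other 6 hearts, and 10 regulators, Ppargc1a, Nrf1 and Gabpa among them, were not called. Of 13 genes of coenzyme Q synthesis and handling, Coq10b, which binds coenzyme Q, fell by 0.39 ± 0.08 (limma, adjusted p = 0.0266). None of 11 genes for the upkeep and transcription of mitochondrial DNA was called by limma, and 3 had an unadjusted p under 0.05 in GlycoHi: Tfb1m (0.31 ± 0.08), Tfb2m (-0.22 ± 0.07) and Tfam (0.20 ± 0.07). Of 10 carriers, Slc25a5, a general form of the adenine nucleotide translocase, rose by 0.37 ± 0.08 (limma, adjusted p = 0.0445). Ucp2, an uncoupling protein, was higher in GlycoHi than in GlycoLo by 0.62 ± 0.11 (limma, adjusted p = 0.019). Over these lists and the assembly factors, 9 of 96 genes were called by limma in GlycoHi against WT, 6 in GlycoHi against GlycoLo and 0 in GlycoLo against WT, beside 2.08%, 1.71% and 0.0844% of all probe sets. At an unadjusted p under 0.05 there were 23 (11 higher, 12 lower), 33 (9 higher, 24 lower) and 15 (10 higher, 5 lower), beside 14.5%, 12.9% and 9.48% of all probe sets.

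Markers of the cell types a heart sample can hold were measured beside these genes. Of 8 cardiomyocyte markers, Myh6, the main adult myosin heavy chain of the mouse heart, fell in GlycoHi by 0.70 ± 0.10 (limma, adjusted p = 0.00444), and 7 were not called. The log2 of the summed cardiomyocyte markers was 16.3 to 16.4 in WT and 16.2 to 16.3 in GlycoHi. The median difference of the 8 markers in GlycoHi was -0.17 against WT and -0.03 against GlycoLo. In GlycoLo against WT it was -0.05. The sum of 7 measured white adipocyte markers was lower in GlycoHi, at 9.47 to 9.63 against 10.1 to 10.7 in WT, with 1 of the 7, Thrsp, called (-0.98 ± 0.10, limma, adjusted p = 0.000741). The sum of 7 skeletal muscle markers was higher in GlycoHi, at 12.46 to 12.95 against 12.21 to 12.42 in WT, with 0 called against WT. That sum followed its brightest member, Acta1, the skeletal muscle actin (12.14 ± 0.11 in WT and 12.53 ± 0.28 in GlycoHi, SD, n = 3), and the median difference of the 7 markers was -0.04 against WT and -0.24 against GlycoLo. Against GlycoLo, Acta1 was higher by 0.64 ± 0.12 (limma, adjusted p = 0.0252) and the dim Tnni2 was lower (-0.48 ± 0.09, limma, adjusted p = 0.0199). For brown adipocytes the sums overlapped at 9.88 to 9.96 in GlycoHi and 9.93 to 10.8 in WT. Among endothelial, fibroblast, macrophage, smooth muscle and erythroid markers, 0 were called in GlycoHi, and no marker is at 0 on this scale. The sum of 4 measured erythroid markers was lower in GlycoHi without overlap, at 7.29 to 7.85 against 8.11 to 8.30 in WT, and read 7.21 to 8.0 in GlycoLo. In GlycoLo the brown adipocyte marker Cidea fell by 0.74 ± 0.10 (limma, adjusted p = 0.02) and the skeletal muscle marker Casq1 rose by 0.73 ± 0.10 (limma, adjusted p = 0.0384). The part of these shifts in the differences of the respiratory genes was not tested. In whole hearts, fewer cells of a type and less RNA per cell cannot be told apart.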

How the data were processed

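Total RNA from 9 hearts was hybridised as biotin-labelled cRNA, as the labels' protocols state. The deposited values are log2; RMA and limma are named in the submitters' processing notes, and the sources used here give no background, scaling or annotation settings. The authors' deposited table pairs these log2 values with gene symbols, 1 probe set a symbol, and with a spread score per probe set, fold changes and p-values of the authors' own comparisons; its values for the 78 genes were identical to those of the value table (largest difference 0).

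From the 45101 probe sets, 64 control probe sets were left out. One linear model with the 3 groups was fitted to all 9 arrays with limma 3.58.1 in R 4.3.3 (6 residual and 4.66 prior degrees of freedom), with Benjamini-Hochberg adjustment over 45037 probe sets; 938 passed the F-test over groups (2.08%), 6 of them respiratory genes: Ndufa10, Ndufs4, Ndufv3, Sdhd, Cox7a1 and Cox8a. Errors after a difference are the SE of the model and errors after a level the SD. Nothing says whether the hearts of a group came from separate litters. The fit was tested on simulated data.

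The genes, the neighbouring lists and the markers were chosen with earlier results of these data known. Genes were named if they were called, among the 3 smallest p-values or at either end of a complex in a comparison, part of the catalytic core, part of an isoform pair, or called in a neighbouring list. RefSeq (GRCm38.p6) lists 75 of the 78 symbols as current names and 3 as synonyms. The alternatives were other sample sets, the replicate number as a block, a filter on dim probe sets, cyclic loess, an offset, other variance models, array weights, a looser threshold and each array left out. One gene of complex I enters the counts but is not reported here by itself.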

Additional observations from a re-analysis of the deposited data

How the results depend on the processing

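The number of called probe sets changed with the variance model, the offset, the filter on dim probe sets, the arrays fitted and the threshold. It changed little with cyclic loess or array weights. Against 38, 938 and 771 called probe sets for GlycoLo against WT, GlycoHi against WT and GlycoHi against GlycoLo, fitting only the 6 arrays compared gave 15, 502 and 444. Leaving out dim probe sets gave 152, 1679 and 1281, the offset of 50 gave 134, 1620 and 1271, the trended and robust variance 256, 1875 and 1547, and an adjusted p under 0.1 gave 96, 1659 and 1274. Against 6 and 4 called respiratory genes in the GlycoHi comparisons, the 6 arrays alone gave 3 and 2, the offset 23 and 23, and the trended and robust variance 26 and 28; the offset moved their median against WT to -0.0546. The cause of these shifts was not tested. Cyclic loess gave 7 and 5 genes and array weights 7 and 4. Leaving out each array in turn gave 13 to 37, 429 to 769 and 375 to 651 probe sets, 0 to 0, 2 to 7 and 0 to 3 respiratory genes, and medians of 0.0153 to 0.0473, -0.0986 to -0.0690 and -0.132 to -0.100. With fewer arrays the shared variance also has fewer degrees of freedom. No called difference changed sign under any of these alternatives, and GlycoLo against WT held 0 called respiratory genes under each of them.

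The labels number the hearts 1 to 3 in each group without saying that a number marks a litter or a day. Over all probe sets, same-number hearts correlated at -0.02 to 0.12 in their deviations from the group means and different-number hearts at -0.11 to 0.06, and for 3 of the 9 arrays the best match in each of the other groups bore its own number. With the number as a block, 17 probe sets were called in GlycoLo against WT, 5 respiratory genes in GlycoHi against WT and 2 in GlycoHi against GlycoLo.

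Levels near background limit the 11 dim probe sets, and 3 hearts per group limit the precision of the rest. Some probe sets outside the 11 also read below the level of 10 that most of these genes reached. Among them were the called Ndufs4, Ndufa10 and Sdhd, at means of 6.97, 7.94 and 8.10. Cycs at 5.29, Ndufb8 at 5.38 and Atp5g1 at 5.24 read little above the array median of 4.78. The large differences of Ndufb8 and Atp5g1 in GlycoHi rest on these low readings. Other probe sets of the same gene, planned as an alternative, were not run. Those listed for Cox5b, Ndufa13 and Cox8a carry another symbol and were left out by the rule. Any others are not named in the sources used here.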
